A study of Homo sapiens with 4 samples.

Results

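The genes described here carry pyruvate into mitochondria, turn it into acetyl-CoA, run the tricarboxylic acid (TCA) cycle and exchange its intermediates with glutamate, aspartate and malate. They were taken by gene name from a list of 40 genes, of which 39 were among the 22637 genes of the deposited count table. ME3 was not analysed here. RNA-seq libraries came from 4 human prostate adenocarcinoma cell lines, with 1 library per line: LNCaP, a castration-sensitive line, and LN-OlapR, raised from it under olaparib, together with C4-2B, a castration-resistant descendant of LNCaP, and 2B-OlapR, raised from C4-2B under olaparib. Olaparib inhibits PARP enzymes of DNA repair. Both resistant lines had been selected with rising olaparib over 1 year and were kept in the drug, while the parental lines were not. The labels give all 4 lines as untreated, and the series' design has the cells plated for 48 hours without selection before RNA was taken. LN-OlapR with LNCaP is called the LN pair below, and 2B-OlapR with C4-2B the 2B pair. Each resistant line is a single derived line, so resistance, the long culture and the history of that line cannot be told apart.

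Pyruvate enters the mitochondrial matrix through a carrier made of MPC1 and MPC2. The pyruvate dehydrogenase complex then makes acetyl-CoA, and its activity is turned down by PDH kinases and restored by PDH phosphatases. Citrate synthase joins acetyl-CoA to oxaloacetate, and the cycle runs on through isocitrate, 2-oxoglutarate, succinate, fumarate and malate. Glutamine feeds the cycle as glutamate, which glutamate dehydrogenase or the transaminases turn into 2-oxoglutarate. Normal prostate epithelium is known for secreting citrate rather than oxidizing it, and prostate cancer cells for oxidizing it again.

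Levels are given as CPM, counts brought to a common library total, after scaling by the trimmed mean of M values (TMM), and differences as log2 ratios with a 95% interval that covers counting error only. With 1 library per line there was no replicate, no test could be run, and the spread between cultures of a line is unknown. Library totals ran from 19950537 to 26394267 counts. Each of the 39 genes had at least 148 counts in every library, and all passed the minimum of a mean of 1 CPM in each comparison. From the ratio to the end of its interval the median was 0.09 on the log2 scale, and it was widest, at 0.33, for PDP1. Of the markers of other cell types, KRT14 of basal cells stayed at or under 0.557 CPM, COL1A1 of stroma at or under 16.1 CPM and VWF of endothelium at or under 12.2 CPM, and the 2 leukocyte genes looked for were not in the table. All 9 luminal prostate genes looked for were present in every library, but the LNCaP library stood apart in KLK3, the gene of prostate-specific antigen, with 53.1 CPM against 2685 (LN-OlapR), 2412 (C4-2B) and 1870 (2B-OlapR). That library enters the LN pair and the comparison of the parental lines, and its part in the results below was not tested.

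The pairs of resistant and parental lines share no library and address how these genes differed between olaparib-resistant cells and the line they came from. In 2B-OlapR against C4-2B, 4 of the 39 genes were at least 1.5-fold higher (MPC1, ACO1, IDH3B and IDH3G) and 2 at least 1.5-fold lower (PDK1 and SUCLG2), while 10.7% of all genes compared were higher and 13.5% lower by that measure. In LN-OlapR against LNCaP, 4 were at least 1.5-fold higher (DLAT, DLD, IDH3B and IDH3G) against 10.6% of all genes, and 3 at least 1.5-fold lower (PDHX, PDK3 and GLUD1) against 10.8%. At the minimum of 1 CPM, these shares of the 39 genes were near those of all genes or below them. With a minimum of 10 CPM, all genes compared were 10015 in the 2B pair (651 higher, 846 lower) and 10143 in the LN pair (666 and 582). Of the 38 genes of the set kept in each, 4 were higher and 2 lower in the 2B pair, and 4 and 3 in the LN pair. These shares were above those of all genes except for lower genes in the 2B pair, which was not tested. Regardless of size, 22 of 39 were higher in 2B-OlapR (50.0% of all genes) and 25 of 39 in LN-OlapR (49.6%). Those splits moved with the scaling: by library totals the share of the 39 that was higher was 46.2% in place of 56.4% (2B pair) and 48.7% in place of 64.1% (LN pair). The share of all genes moved the same way under that scaling but by less, from 50.0% and 49.6% to 46.1% and 40.5% higher. By upper quartile factors the share of the 39 was 64.1% (2B pair) and 66.7% (LN pair), with all genes at 52.6% and 50.3%. The median log2 ratio of the 39 genes was 0.03 in the 2B pair against 0.07 in the LN pair, with the quartiles at -0.28 and 0.20 in the former and -0.08 and 0.32 in the latter. The summed level of the 39 genes was 5095 CPM (LNCaP), 5532 (LN-OlapR), 5615 (C4-2B) and 5621 (2B-OlapR).

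**Figure D1:**
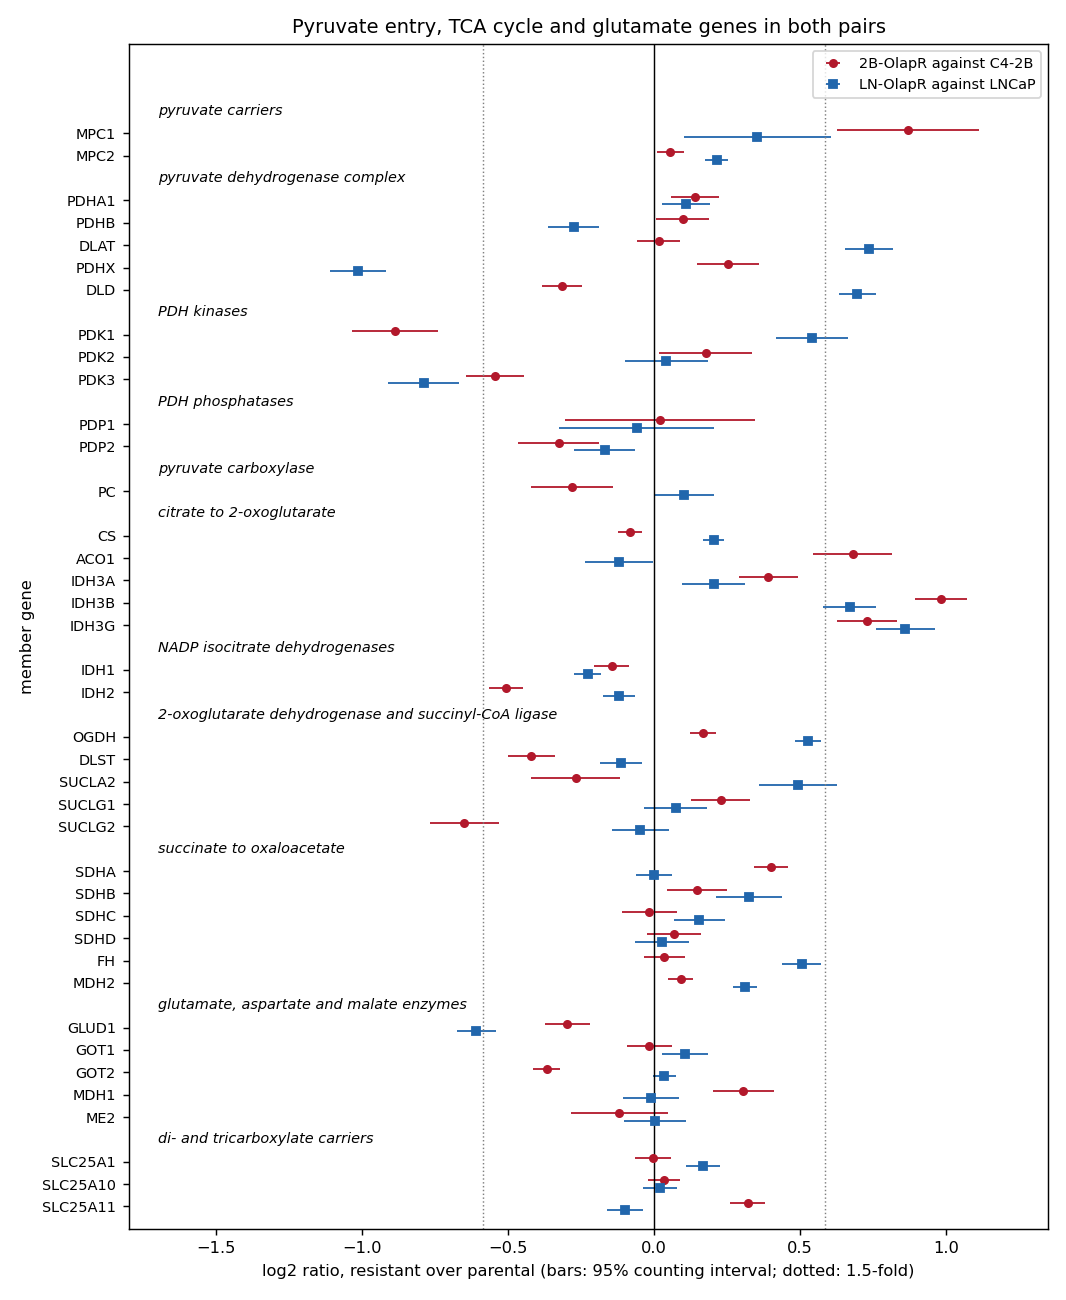
Log2 ratio (x axis) of each of the 39 genes (y axis), grouped by role, in 2B-OlapR against C4-2B (circles) and LN-OlapR against LNCaP (squares). Bars are 95% counting intervals and dotted lines mark 1.5-fold; IDH3B and IDH3G are past 1.5-fold to the right in both pairs, and PDHX and PDK1 lie on opposite sides of 0 in the 2 pairs.

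Across both pairs, 15 of the 39 genes were higher in both resistant lines (28.5% of all genes) and 7 lower in both (29.1%). Counting intervals left out 0 in both pairs for 9 of the former, namely MPC1, MPC2, PDHA1, IDH3A, IDH3B, IDH3G, OGDH, SDHB and MDH2, and for 6 of the latter, namely PDK3, PDP2, IDH1, IDH2, DLST and GLUD1. Of all genes, 14.1% were higher and 13.2% lower in that way. An interval narrows as counts rise, and all genes compared go down to a mean of 1 CPM. Shares that rest on intervals, here and below, thus set the 39 beside a set that includes genes with wider intervals. By library totals, DLAT, PDK2, SUCLG1, SDHD, FH and SLC25A10 were no longer higher in both, which left the 9 genes named above. With that scaling PDP1, GOT2, ME2 and SLC25A10 joined the genes lower in both. Shares of all genes across both pairs were not computed for it. At least 1.5-fold in the same direction in both pairs came to 2 of the 39 genes, IDH3B and IDH3G, against 5.42% of all genes. In 9 genes the ratios had opposite signs with both intervals leaving out 0: PDHB, PDHX, ACO1 and SLC25A11 were higher in 2B-OlapR and lower in LN-OlapR, and DLD, PDK1, PC, CS and SUCLA2 the reverse. Of all genes, 16.3% had such opposite signs, and 10.4% had them with ratios at least 1.5-fold apart, as did 5 of the 39 (PDHX, DLD, PDK1, ACO1 and SUCLA2).

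The mitochondrial pyruvate carrier differed in its less counted subunit. MPC1 stood at 8.89 CPM in LNCaP with 11.4 in LN-OlapR, and 10.1 CPM in C4-2B with 18.5 in 2B-OlapR, so the 2B-OlapR library was apart from the other 3. On the log2 scale its ratio was 0.87 in the 2B pair (interval 0.62 to 1.11), a 1.83-fold higher level, and 0.35 in the LN pair (0.10 to 0.61). MPC2 was close in all lines, between 365.9 CPM in C4-2B and 430.3 CPM in LN-OlapR, with log2 ratios of 0.06 and 0.21. Of its exon bases, 14.4% lie opposite exons of DCAF6, which had up to 65.2% as many counts and log2 ratios of 0.15 and 0.32. The share of DCAF6 reads in the MPC2 counts was not tested. Within a library, and per kilobase of exon, MPC1 had 0.045 of the level of MPC2 (LNCaP), 0.050 (LN-OlapR), 0.052 (C4-2B) and 0.092 (2B-OlapR).

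The pyruvate dehydrogenase complex has a decarboxylase (E1, from PDHA1 and PDHB), an acetyl transferase (E2, DLAT), a protein that binds the third enzyme to the core (PDHX) and the lipoamide dehydrogenase DLD (E3), which the 2-oxoglutarate and branched-chain complexes share. PDHX was at 109 CPM in LNCaP with 53.7 in LN-OlapR, and 63.0 CPM in C4-2B with 75.1 in 2B-OlapR. LNCaP thus held the high value, and the other 3 lines lay within a narrower range. The log2 ratio of PDHX was -1.01 in the LN pair (interval -1.11 to -0.92), a level 2.02-fold lower in LN-OlapR, and 0.25 in the 2B pair (0.15 to 0.36).

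DLAT went the other way in the same library, at 75.8 CPM (LNCaP), 126 (LN-OlapR), 139 (C4-2B) and 141 (2B-OlapR). LNCaP was its low value, and the other 3 lines lay close together. Its log2 ratio was 0.73 in the LN pair (0.65 to 0.82) and 0.02 in the 2B pair (-0.06 to 0.09). DLD was at 125 CPM in LNCaP with 202 in LN-OlapR, and 186 CPM in C4-2B with 149 in 2B-OlapR, so it was higher in one resistant line (log2 ratio 0.70, 0.63 to 0.76) and lower in the other (-0.32, -0.39 to -0.25). The E1 subunits moved less. PDHA1 lay between 90.0 and 124 CPM with log2 ratios of 0.14 in the 2B pair against 0.11 in the LN pair, and PDHB between 75.0 and 96.7 CPM with log2 ratios of 0.10 and -0.28. Per kilobase of exon, PDHX was at 2.20 times the level of DLAT in LNCaP but at 0.655 (LN-OlapR), 0.696 (C4-2B) and 0.821 (2B-OlapR) times elsewhere.

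**Figure D2:**
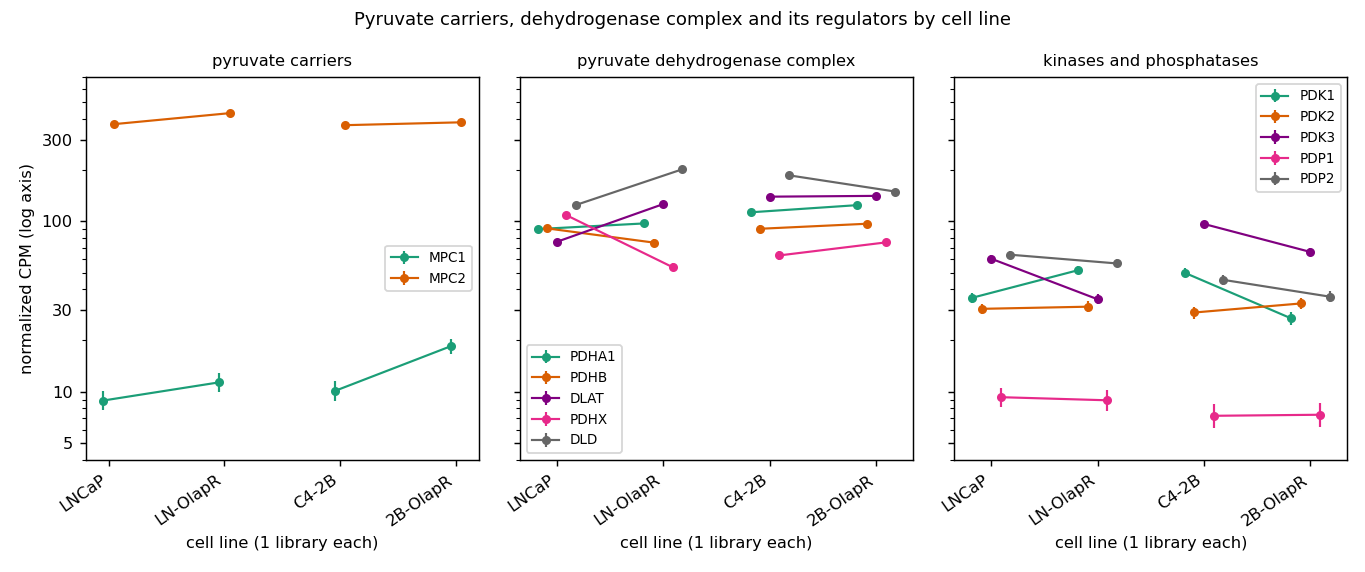
Normalized CPM (y axis, log scale) of the pyruvate carriers, the pyruvate dehydrogenase complex and its kinases and phosphatases in the 4 cell lines (x axis, 1 library each), with a line from each parental to its resistant line and 95% counting intervals as bars. Levels can be compared along a gene but not between genes of different length; PDHX is at 109 CPM in LNCaP and 53.7 CPM in LN-OlapR, while DLAT and DLD are higher in LN-OlapR.

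Of the PDH kinases, which phosphorylate and switch off E1, PDK1 is known as a target of hypoxia signalling. PDK1 was at 35.6 CPM (LNCaP), 51.7 (LN-OlapR), 49.8 (C4-2B) and 26.9 (2B-OlapR). The highest and the lowest level were thus in the resistant lines. On the log2 scale its ratio was -0.89 in the 2B pair (interval -1.04 to -0.74) and 0.54 in the LN pair (0.42 to 0.66). PDK3 was lower in both resistant lines, at 60.3 CPM in LNCaP with 34.9 in LN-OlapR, and 96.4 CPM in C4-2B with 66.1 in 2B-OlapR. Its log2 ratio was -0.55 in the 2B pair (-0.64 to -0.45) and -0.79 in the LN pair (-0.91 to -0.67), and its highest level was 2.76-fold its lowest, the widest range among the 39 genes. PDK2 lay between 29.2 and 33.0 CPM in all lines. Of its exon bases, 54.6% lie opposite exons of SAMD14, which had at most 13 counts in any library.

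The phosphatases that reverse this step had low and flat levels for PDP1, between 7.23 and 9.30 CPM, with log2 ratios of 0.02 and -0.06 whose intervals held 0. PDP2 was at 63.6 CPM (LNCaP), 56.6 (LN-OlapR), 45.4 (C4-2B) and 36.1 (2B-OlapR), with log2 ratios of -0.33 in the 2B pair against -0.17 in the LN pair. Both resistant lines were thus below their parental line in PDP2, and both C4-2B lines below both LNCaP lines. Pyruvate carboxylase (PC), which makes oxaloacetate from pyruvate, had log2 ratios of -0.28 in the 2B pair against 0.10 in the LN pair.

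The NAD-dependent isocitrate dehydrogenase, which makes 2-oxoglutarate inside the cycle, is built from catalytic IDH3A and the regulatory subunits IDH3B and IDH3G, and all 3 were higher in both resistant lines under each scaling tried. IDH3B was at 62.0 CPM in LNCaP with 98.6 in LN-OlapR, and 72.8 CPM in C4-2B with 144 in 2B-OlapR, and IDH3G at 48.8, 88.6, 59.2 and 98.3 CPM in the same order. In both genes each resistant line was above both parental lines. IDH3B had a log2 ratio of 0.98 in the 2B pair (interval 0.89 to 1.07) and 0.67 in the LN pair (0.58 to 0.76), and IDH3G of 0.73 (0.63 to 0.83) and 0.86 (0.76 to 0.96). IDH3B was 1.97-fold higher in 2B-OlapR, the largest ratio of the 39 genes in that pair, and IDH3G 1.82-fold higher in LN-OlapR, the largest in the LN pair. The catalytic subunit IDH3A moved less, at 50.6 CPM (LNCaP), 58.3 (LN-OlapR), 66.6 (C4-2B) and 87.4 (2B-OlapR). On the log2 scale its ratio was 0.39 in the 2B pair (0.29 to 0.49) and 0.20 in the LN pair (0.10 to 0.31), and LN-OlapR stayed below C4-2B.

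Since both counts of a ratio come from 1 library, ratios between subunits do not depend on the scaling. Per kilobase of exon, IDH3B was at 2.87 times IDH3A in LNCaP and 3.97 times in LN-OlapR, and at 2.56 times in C4-2B and 3.86 times in 2B-OlapR. The intervals of each resistant line, 3.71 to 4.24 and 3.64 to 4.09, did not meet those of its parental line, 2.67 to 3.09 and 2.38 to 2.76. IDH3G to IDH3A was 2.28 in LNCaP with 3.60 in LN-OlapR, and 2.11 in C4-2B with 2.66 in 2B-OlapR. For IDH3G, 15.2% of the exon bases lie opposite exons of SSR4, which had up to 288% as many counts as IDH3G and log2 ratios of 0.41 and 0.34. Whether the authors' counting used strand is not given in the sources used here, so the share of SSR4 reads in the IDH3G counts cannot be told apart. For IDH3A, 60.3% lie opposite exons of ACSBG1, whose counts came to at most 3.30% of those of IDH3A. No gene of the table overlapped the exons of IDH3B. Of the 39 genes, 12 shared over 10% of their exon bases with another gene on either strand.

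IDH3A, IDH3B and IDH3G code for subunits of 1 enzyme and were higher together in both resistant lines. For each of these 3 genes, the 250 bases before 1 RefSeq start are shown. Such a start can differ from the GENCODE bounds used for exon lengths and positions. By those bounds IDH3A starts at chr15:78131498, so its whole window lies within the gene. IDH3G starts at chrX:153794523, so part of its window, with both marked motifs, lies within the gene. The GENCODE start of IDH3B, chr20:2664219, is at the edge of its window. The letters are from RefSeq (GRCh38.p14), read 5′ to 3′ on the strand of the gene, and capitals mark 2 motifs searched on both strands, GCGCA followed by any base and GCGC (bound by NRF1, a regulator of nuclear genes for mitochondrial proteins) and CCGGAAG (bound by ETS factors).
IDH3A, chr15:78149112-78149361, plus strand: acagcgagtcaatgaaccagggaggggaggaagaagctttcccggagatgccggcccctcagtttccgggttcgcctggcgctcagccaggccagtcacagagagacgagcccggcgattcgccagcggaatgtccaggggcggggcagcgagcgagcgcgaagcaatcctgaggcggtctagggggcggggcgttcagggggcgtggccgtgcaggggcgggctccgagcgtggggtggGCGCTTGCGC
IDH3B, chr20:2664217-2664466, minus strand: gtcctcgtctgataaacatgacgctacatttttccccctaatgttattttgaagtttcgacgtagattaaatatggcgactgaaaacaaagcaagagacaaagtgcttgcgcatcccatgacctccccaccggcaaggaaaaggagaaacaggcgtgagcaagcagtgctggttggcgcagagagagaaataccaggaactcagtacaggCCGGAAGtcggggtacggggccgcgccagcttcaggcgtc
IDH3G, chrX:153794376-153794625, minus strand: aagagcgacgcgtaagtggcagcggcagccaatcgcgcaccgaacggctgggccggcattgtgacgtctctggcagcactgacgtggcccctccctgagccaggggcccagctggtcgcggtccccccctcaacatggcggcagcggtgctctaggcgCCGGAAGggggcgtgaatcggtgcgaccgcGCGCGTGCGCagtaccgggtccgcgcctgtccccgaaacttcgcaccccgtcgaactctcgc
The NRF1 letters were in the windows of IDH3A and IDH3G and the ETS letters in those of IDH3B and IDH3G. Of 35116 windows of this length, 5.07% held the NRF1 letters and 8.52% the ETS letters. For 36 of the 39 genes there were 47 windows, of which 17.0% held the NRF1 letters and 14.9% the ETS letters. Windows of 8 genes held the NRF1 letters: GLUD1, IDH3A, IDH3G, MPC2, SDHA, SDHD, SLC25A11 and SUCLA2. Those 8 included genes higher in both resistant lines and GLUD1, which was lower in both. The ETS letters were in windows of 7 genes, DLST, IDH3B, IDH3G, MDH2, ME2, SDHB and SDHD. The 2 motifs did not overlap in the windows shown, and a match is a description of the letters only.

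**Figure D3:**
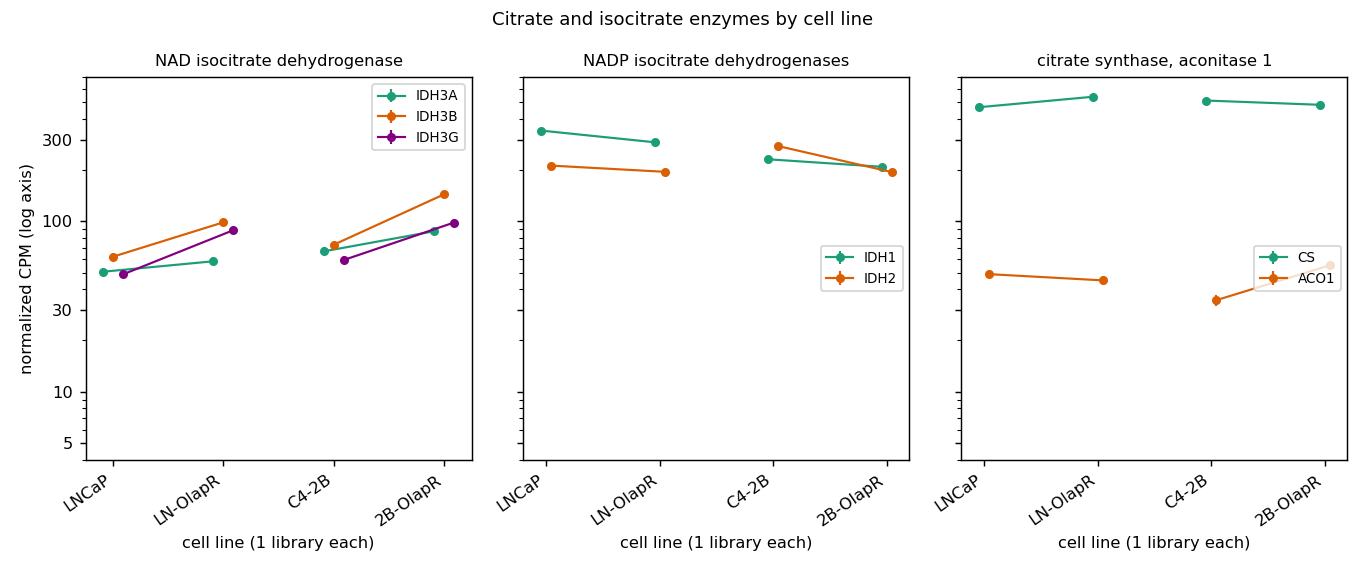
Normalized CPM (y axis, log scale) of the isocitrate dehydrogenases, citrate synthase and aconitase 1 in the 4 cell lines (x axis, 1 library each), with a line from each parental to its resistant line and 95% counting intervals as bars, mostly smaller than the points. All 3 IDH3 subunits slope up in both pairs, and IDH1 and IDH2 slope down in both.

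The NADP-dependent isocitrate dehydrogenases went the other way. IDH1, the cytosolic and peroxisomal enzyme, was at 340.3 CPM (LNCaP), 291 (LN-OlapR), 231 (C4-2B) and 209 (2B-OlapR). IDH2, the mitochondrial one, was at 212, 195, 276 and 194 CPM in the same order. Each resistant line was below its own parental line in both genes. The log2 ratio of IDH1 was -0.15 in the 2B pair against -0.23 in the LN pair, and that of IDH2 was -0.51 in the 2B pair (interval -0.56 to -0.45) and -0.12 in the LN pair (-0.18 to -0.06). All of these were under 1.5-fold. IDH1 was at 1.62 times IDH2 in LNCaP and 1.503 times in LN-OlapR, but at 0.844 times in C4-2B and 1.08 times in 2B-OlapR, per kilobase of exon.

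Citrate synthase (CS), the first enzyme of the cycle, lay between 466 and 537 CPM and had log2 ratios of -0.08 in the 2B pair against 0.20 in the LN pair. ACO1, the cytosolic aconitase that also acts as an iron-responsive RNA-binding protein, was at 49.0 CPM in LNCaP with 45.0 in LN-OlapR, and 34.5 CPM in C4-2B with 55.2 in 2B-OlapR. C4-2B was its low value. The log2 ratio was 0.68 in the 2B pair (interval 0.54 to 0.82) and -0.12 in the LN pair, where the interval ended just under 0.

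The 2-oxoglutarate dehydrogenase complex, which makes succinyl-CoA, is formed by OGDH (E1), DLST (E2) and the shared DLD. OGDH was higher in both resistant lines, at 256 CPM (LNCaP), 369 (LN-OlapR), 365.9 (C4-2B) and 411 (2B-OlapR). Its log2 ratio was 0.17 in the 2B pair (interval 0.12 to 0.21) and 0.53 in the LN pair (0.48 to 0.57). DLST was lower in both, with log2 ratios of -0.42 (-0.50 to -0.34) and -0.11 (-0.18 to -0.04). DLSTP1, a processed copy of DLST, had between 15.0% and 17.7% as many counts as DLST, so some reads of these 2 may have been split between them.

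Succinyl-CoA ligase makes ATP or GTP as it forms succinate, from the shared subunit SUCLG1 with SUCLA2 for ATP or SUCLG2 for GTP. SUCLG2 was at 69.2 CPM in LNCaP with 66.9 in LN-OlapR, and 71.7 CPM in C4-2B with 45.7 in 2B-OlapR, so the 2B-OlapR library alone was low. SUCLG2P2, a copy of SUCLG2, had from 15.9% to 18.0% as many counts. On the log2 scale its ratio was -0.65 in the 2B pair (interval -0.77 to -0.53) and -0.05 in the LN pair (-0.15 to 0.05). SUCLA2 was highest in LN-OlapR, at 43.4 CPM against 30.8 in LNCaP, 36.7 in C4-2B and 30.5 in 2B-OlapR, and SUCLG1 ran from 53.2 CPM in LNCaP to 81.6 CPM in 2B-OlapR. Per kilobase of exon, SUCLA2 to SUCLG2 was 0.324 (LNCaP), 0.472 (LN-OlapR), 0.373 (C4-2B) and 0.486 (2B-OlapR). That ratio was thus higher in both resistant lines, through SUCLA2 in LN-OlapR and through SUCLG2 in 2B-OlapR. Lengths of SUCLA2 differ between its transcripts, and with the longest transcript of each gene the 4 ratios were 0.452, 0.657, 0.519 and 0.676.

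Succinate dehydrogenase, which is also complex II of the respiratory chain, has the flavin subunit SDHA, the iron-sulfur subunit SDHB and the membrane anchors SDHC and SDHD. SDHA was at 161 CPM in LNCaP with 160.4 in LN-OlapR, and 198 CPM in C4-2B with 261 in 2B-OlapR. It was higher in 2B-OlapR, with a log2 ratio of 0.40 (interval 0.34 to 0.46), and close to equal in the LN pair (-0.06 to 0.06). SDHB had log2 ratios of 0.15 in the 2B pair against 0.33 in the LN pair. The anchors moved little, with SDHC between 80.6 and 90.5 CPM and SDHD between 74.5 and 93.4 CPM. Copies of SDHA, namely SDHAP1, SDHAP3 and SDHAP4, had 14.9% (LNCaP), 21.9% (LN-OlapR), 18.5% (C4-2B) and 19.9% (2B-OlapR) as many counts as SDHA. The ends of that range were the 2 libraries of the LN pair. Whether reads split with the copies affected the SDHA ratios was not tested.

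Fumarase (FH) and mitochondrial malate dehydrogenase (MDH2) close the cycle. FH was at 125 CPM (LNCaP), 178 (LN-OlapR), 157 (C4-2B) and 161 (2B-OlapR), so LNCaP was the low value. The log2 ratio of FH was 0.50 in the LN pair (interval 0.44 to 0.57) and 0.03 in the 2B pair (-0.04 to 0.10). MDH2 had log2 ratios of 0.31 and 0.09 in those pairs.

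Glutamate dehydrogenase (GLUD1), which turns glutamate into 2-oxoglutarate and ammonia, was lower in both resistant lines. It was at 188 CPM in LNCaP with 123 in LN-OlapR, and 144 CPM in C4-2B with 117 in 2B-OlapR, with a log2 ratio of -0.30 in the 2B pair (interval -0.37 to -0.22) and -0.61 in the LN pair (-0.67 to -0.54). GLUD2 and GLUD1P3, close copies of GLUD1, had together from 19.9% to 22.2% as many counts. A share of 15.3% of the exon bases of GLUD1 lies opposite exons of SHLD2, whose log2 ratios were -0.18 and -0.51.

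The transaminases and malate enzymes pass reducing power and carbon between cytosol and mitochondria. GOT2, the mitochondrial aspartate transaminase, was at 417 CPM (LNCaP), 428 (LN-OlapR), 425 (C4-2B) and 329 (2B-OlapR), and its log2 ratio in the 2B pair was -0.37 (interval -0.41 to -0.32). The 2B-OlapR library alone was low. Cytosolic GOT1 differed little within either pair, with log2 ratios of -0.02 and 0.11, so that GOT1 to GOT2 per kilobase of exon was 0.194 in LNCaP with 0.204 in LN-OlapR, and 0.255 in C4-2B with 0.326 in 2B-OlapR. Cytosolic MDH1 had log2 ratios of 0.31 in the 2B pair against -0.01 in the LN pair. ME2, the mitochondrial malic enzyme that makes pyruvate from malate, was alike within each pair, at 55.5 CPM in LNCaP and 55.6 in LN-OlapR but 29.3 in C4-2B and 26.9 in 2B-OlapR.

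The inner membrane carriers for citrate (SLC25A1), dicarboxylates (SLC25A10) and 2-oxoglutarate (SLC25A11) lay between 161 and 262 CPM in all lines. SLC25A11 was at 173 CPM (LNCaP), 161 (LN-OlapR), 193 (C4-2B) and 242 (2B-OlapR), with log2 ratios of 0.32 in the 2B pair (interval 0.26 to 0.38) and -0.10 in the LN pair (-0.16 to -0.04). RNF167, whose exons lie opposite 12.9% of the exon bases of SLC25A11, had log2 ratios of 0.69 and 0.11. The citrate carrier had log2 ratios of -0.00 and 0.17, and the dicarboxylate carrier of 0.03 and 0.02. Of the exon bases of SLC25A10, 60.4% are shared on the same strand with AC139530.2, the largest such overlap among the 39 genes, which counting by strand cannot separate.

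**Figure D4:**
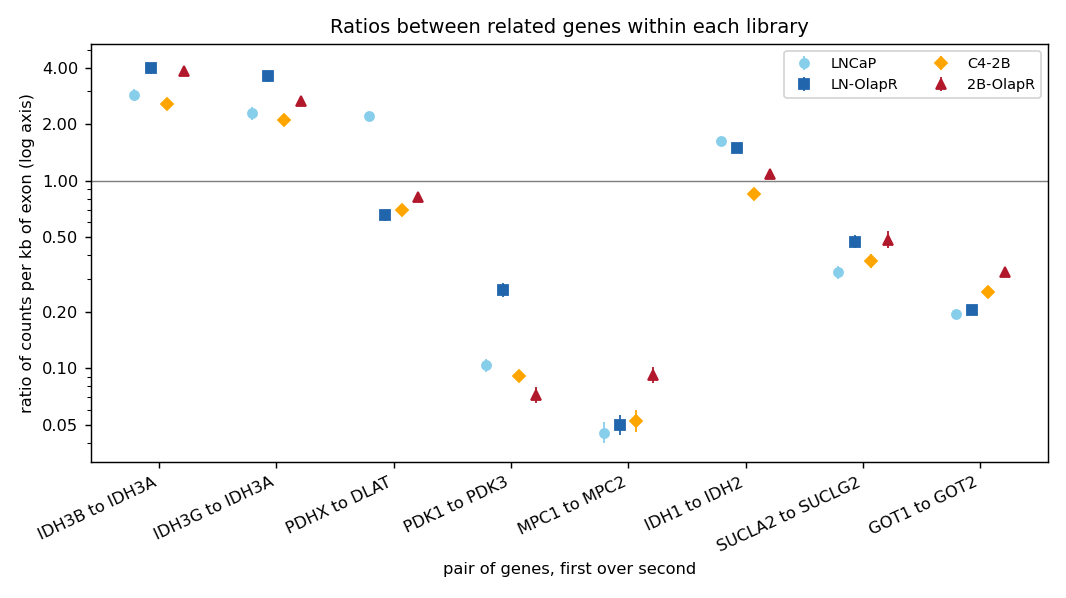
Ratio of the counts per kilobase of exon of 2 related genes (y axis, log scale; the line marks 1) within each of the 4 libraries, for 8 pairs of genes (x axis), with 95% counting intervals as bars. IDH3B to IDH3A and IDH3G to IDH3A are higher in each resistant line than in its parental line, and PDHX to DLAT is above 1 in LNCaP alone.

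C4-2B against LNCaP asks how the castration-resistant line differed from its precursor, and shares a library with each of the pairs above. At least 1.5-fold higher in C4-2B were 3 genes, DLAT, PDK3 and SDHB (16.1% of all genes), and at least 1.5-fold lower 2, PDHX and ME2 (16.1%). Regardless of size, 27 of 39 were higher in C4-2B, against 48.6% of all genes, and the median log2 ratio of the 39 was 0.19. All 6 genes from succinate to oxaloacetate were higher in C4-2B under each scaling, with log2 ratios from 0.17 for SDHC to 0.66 for SDHB (interval 0.55 to 0.77). The 5 from 2-oxoglutarate to succinate had log2 ratios from 0.05 to 0.52. Of these, the intervals of SUCLG2 (-0.046 to 0.151) and DLST (-0.004 to 0.139) held 0. ME2 had the lowest ratio, -0.92 (-1.06 to -0.78), DLAT the highest, 0.88 (0.80 to 0.96), and PDHX was at -0.78 (-0.88 to -0.69). LNCaP was the lowest of the 4 libraries for 18 of the 39 genes, against 25.8% of all genes, and 2B-OlapR the highest for 17, against 29.4%.

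Of 52 further symbols listed for the pathway, 50 were in the table. PDK4 was not analysed here, and the listed symbol LIPT4 was matched to no gene. Among 17 genes of glutamine and glutamate use, 14 were lower in 2B-OlapR and 11 higher in LN-OlapR (7 by library totals), with medians of -0.29 and 0.03. Of all genes 50.0% were higher in 2B-OlapR and 49.6% in LN-OlapR, or 40.5% in the latter by library totals. OAT, which links ornithine to glutamate, was higher in both pairs, at 9.67 CPM in LNCaP with 35.2 in LN-OlapR, and 30.4 CPM in C4-2B with 60.1 in 2B-OlapR, or log2 ratios of 0.98 in the 2B pair (interval 0.84 to 1.12) and 1.86 in the LN pair (1.66 to 2.06). The glutamine carrier SLC38A1 had a log2 ratio of -0.67 in the 2B pair against 0.09 in the LN pair, and the GABA transaminase ABAT of -0.66 and 0.07. ALDH5A1, which returns GABA carbon to succinate, had 209 counts (LNCaP), 1 (LN-OlapR), 496 (C4-2B) and 261 (2B-OlapR). Its log2 ratio was -6.92 in the LN pair (-9.24 to -4.60) and -0.94 in the 2B pair (-1.16 to -0.73). With 1 count in LN-OlapR, the size of the former depends on the pseudocount of 0.5. The alanine transaminase GPT had a log2 ratio of 1.22 in the LN pair, from 2.01 CPM in LNCaP and 4.72 CPM in LN-OlapR. In the 2B pair it had -0.23 (-0.52 to 0.05).

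The 9 genes of lipoylation and complex II assembly that were in the table were all at a log2 ratio below 0 in the LN pair (8 of 9 by DESeq2 size factors, where SDHAF2 was above 0), and 3 were at least 1.5-fold lower: LIPT1 (-1.11), LIPT2 (-0.85) and NFU1 (-0.68), which help attach lipoate to E2 enzymes such as DLAT and DLST. In the 2B pair 6 of those 9 were higher, none past 1.5-fold, from -0.39 for SDHAF4 to 0.46 for LIPT2. Of 10 other enzymes around pyruvate and the cycle, PCK2, which makes phosphoenolpyruvate in mitochondria, and DHTKD1, an E1 for 2-oxoadipate, were lower in 2B-OlapR, at log2 ratios of -1.08 and -1.11, and had -0.23 and -0.55 in the LN pair. OGDHL, a relative of OGDH, had a log2 ratio of 0.84 in the LN pair (0.59 to 1.10) and 0.50 in the 2B pair. Of 5 genes of the branched-chain keto acid dehydrogenase, which shares DLD, its E2 subunit DBT was at -1.05 in the 2B pair against -0.12 in the LN pair. PPM1K, the phosphatase that switches this complex on, was at 0.57 in the 2B pair against -1.59 in the LN pair. Among 9 further carriers SLC25A6, an ADP/ATP carrier, was past 1.5-fold in the LN pair, at 0.61, and at -0.19 in the 2B pair (-0.25 to -0.13). The 2B pair of those carriers ran from -0.37 for SLC25A3 to 0.43 for SLC25A21, whose interval held 0. Over all lists, 1 of 50 genes was at least 1.5-fold higher and 6 lower in the 2B pair, and 4 of 49 higher and 5 lower in the LN pair. Of all genes, 10.7% and 13.5% did so in the 2B pair, and 10.6% and 10.8% in the LN pair. At the minimum of 1 CPM these counts were thus near those shares or below them.

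Genes near some of the 39 on the chromosome were set beside them after the values had been seen. APIP, whose exons lie opposite 8.94% of the exon bases of PDHX, had 652 counts in LNCaP with 302 in LN-OlapR, and 272 counts in C4-2B with 284 in 2B-OlapR, and a log2 ratio of -0.90 in the LN pair. It was thus high in the same library as PDHX. Within 2 Mb of PDHX (chr11:34915829-35020591, GRCh38), 18 of 23 genes were lower in the LN pair, with a median log2 ratio of -0.36. Around IDH3G (chrX:153785766-153794523), 55 of 65 genes were higher in the LN pair, 22 of them at least 1.5-fold, with a median of 0.48, and 47 of 66 were higher in the 2B pair, with a median of 0.23. Near SUCLA2 on chromosome 13, 21 of 27 genes were higher in the LN pair, with a median of 0.45. Around SDHA on chromosome 5, 24 of 28 genes were higher in the 2B pair (median 0.58), and around DLST on chromosome 14, 46 of 49 were lower (median -0.51). Around DLD on chromosome 7, whose own ratios had opposite signs, 16 of 18 genes were lower in the 2B pair (median -0.47) and 12 of 16 higher in the LN pair (median 0.27).

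Other members of the set differed from the median of the genes around them. MPC1 and PDK1, at log2 ratios of 0.87 and -0.89 in the 2B pair, had neighbours with medians of -0.02 and 0.00, and IDH3B, at 0.67 in the LN pair, had neighbours with a median of -0.08. In the other pair the neighbours of IDH3B had a median of 0.25 beside its own 0.98, those of PDK1 0.23 beside 0.54, and those of MPC1 0.13 beside 0.35. PC, at -0.28 in the 2B pair, had 83 of 121 neighbours higher, with a median of 0.16. DLAT, at 0.73 in the LN pair, had neighbours with a median of 0.03. Across the 39 genes, Pearson's r between a gene's own log2 ratio and the median of its neighbours was 0.53 in the 2B pair against 0.64 in the LN pair, with Spearman's rho of 0.54 and 0.53. Between the parental lines they were 0.38 and 0.35. Such values over all genes are not given here, so whether they are particular to the 39 was not tested. These are descriptions across genes, which are not replicates, share their libraries and rest on 5 to 121 neighbours each, and DLAT and SDHD on chromosome 11 share most of theirs.

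**Figure D5:**
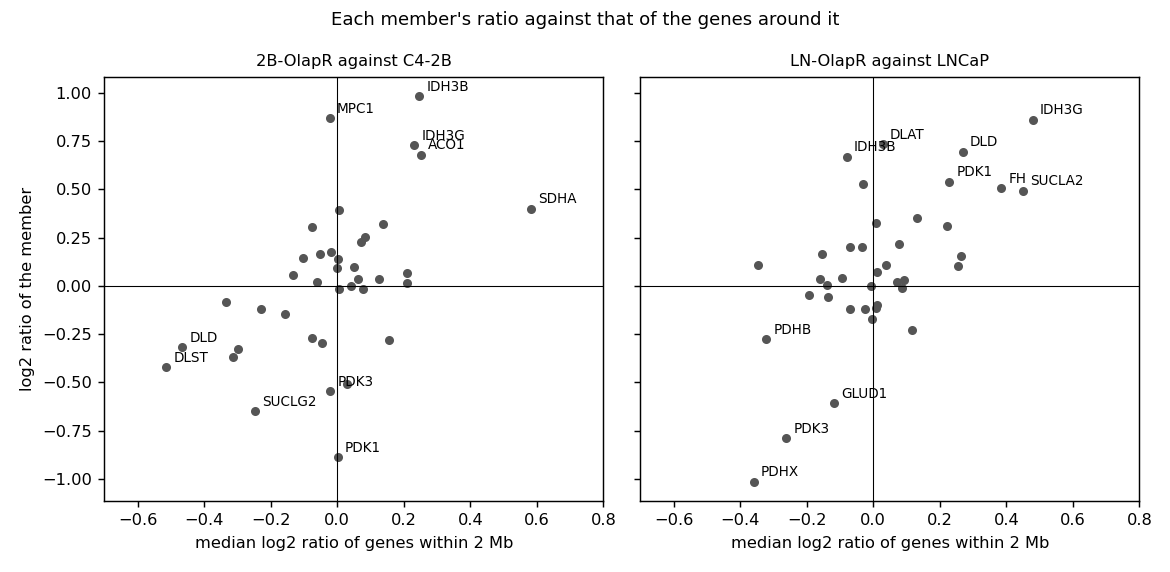
Log2 ratio of each of the 39 genes (y axis) against the median log2 ratio of the other genes within 2 Mb on either side (x axis), for 2B-OlapR against C4-2B (left) and LN-OlapR against LNCaP (right); each point is 1 gene. PDHX, PDK3 and GLUD1 lie at the lower left and IDH3G at the upper right of the LN pair, while MPC1 and PDK1 lie above and below neighbours with medians near 0 in the 2B pair.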

How the data were processed

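Poly(A) RNA of the 4 lines was sequenced with a stranded mRNA kit. Per the labels' processing notes, the submitters used STAR and Partek on GRCh38 (hg38); versions, annotation, counting settings and use of strand are not given in the sources used here. The authors deposited 1 table of estimated counts per gene, not normalized, of which 46.2% were not whole numbers and every gene summed to at least 10 over the libraries. The study's methods and the series' design give different plating times; the latter is used.

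Counts were rounded and scaled with edgeR 4.0.16 (R 4.3.3) by TMM factors over all genes. Log2 ratios used a pseudocount of 0.5 counts, with 95% counting intervals from the normal approximation and exact Poisson intervals for levels (Python 3.11.15, SciPy 1.17.1). Counting intervals treat reads as independent molecules. Genes were kept where the 2 libraries compared averaged 1 normalized CPM or more, and 1.5-fold was the size named. No test was run, as each line had 1 library. Alternatives were library totals, DESeq2 1.42.0 size factors and upper quartile factors, a pseudocount of 2, minimums of 0.1 and 10 CPM, unrounded counts and a fold of 2. The ratio step was tested on simulated data.

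Exon lengths, positions and overlaps came from GENCODE 29, and promoter letters from RefSeq (GRCh38.p14). Lengths are unions of exons. Every one of the 39 genes was named; of 5 lists of other pathway genes, those at least 1.5-fold changed in a pair were named, or else the highest and lowest. The genes and lists were chosen with earlier results of these data known.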

Additional observations from a re-analysis of the deposited data

Results flagged for a closer look

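For 5 genes the log2 ratios of the pairs had opposite signs, both counting intervals left out 0, and the ratios were at least 1.5-fold apart. Of all genes, 10.4% met the same rule, so 5 of 39 is near that share. All genes include ones with fewer counts and wider intervals, so the sets are not alike in this. With 1 library per line the difference between the pairs was not tested. The ratio of the 2B pair minus that of the LN pair was 1.27 for PDHX, -1.01 for DLD, -1.43 for PDK1, 0.80 for ACO1 and -0.76 for SUCLA2. PDHX was lower and SUCLA2 and DLD higher in LN-OlapR than in LNCaP, as was PDK1, while 2B-OlapR held more ACO1 than its parental line. For PDHX the LNCaP library held the one high level, and for PDK1 the extremes were the resistant lines.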

How the results depend on the processing

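Of 815 ratios of single genes under the alternatives, 796 stayed within the counting interval of the reported ratio, and the other 19 all came from scaling by library totals. The minimums of 0.1 and 10 CPM cannot change a gene's ratio, and they gave 117 and 113 of the 815. Unrounded counts and a pseudocount of 2 act little on genes with at least 148 counts. The scalings could move these ratios, and by library totals 98 stayed within the interval and 19 did not. No ratio of at least 1.5-fold changed sign. By library totals the median log2 ratio of the 39 genes was -0.0078 (2B pair) and -0.0103 (LN pair), below 0 in place of above it. That scaling shifts the ratios of all genes of a pair alike, and the median of all genes moved with them, from -0.00026 to -0.042 and from -0.0040 to -0.088. With a minimum of 0.1 CPM, more genes entered, and the genes at least 1.5-fold higher and lower were 3531 and 4080 (2B pair), 3535 and 3602 (LN pair), and 4715 and 4419 between the parental lines. With a minimum of 10 CPM, fewer entered, and the counts were 651 and 846, 666 and 582, and 1162 and 1131 in the same order. The genes compared at that minimum were 10015, 10143 and 10157. At a fold of 2 the counts were 687 and 877, 713 and 742, and 1246 and 1118. Of the 39 genes, 0 were higher and 0 lower by that fold (2B pair), 0 higher and 1 lower (PDHX; LN pair), and 0 and 0 between the parental lines. Ratios near 0 changed sign between scalings for DLAT, FH, GOT1, PDP1, SDHC, SLC25A1 and SLC25A10 in the 2B pair, GOT2, ME2, PDK2, SDHA, SDHD, SLC25A10 and SUCLG1 in the LN pair, and MPC2 and PDHB between the parental lines. No paired analysis was possible because each line had 1 library, and no library could be left out. Counting error alone limits ratios of PDP1 and MPC1 most; the error between cultures is unknown.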

Other observations

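In the comparison of the parental lines, genes of the pathway outside the 39 showed the widest differences, and these were picked after their values were seen. SLC7A5, which exchanges glutamine for large neutral amino acids, was at 7.51 CPM (LNCaP), 5.14 (LN-OlapR), 422 (C4-2B) and 336 (2B-OlapR), a log2 ratio of 5.81 between C4-2B and LNCaP (counting interval 5.61 to 6.01). ACSS1, the mitochondrial acetyl-CoA synthetase, was at 0.521 CPM in LNCaP with 0.257 in LN-OlapR, and 22.5 CPM in C4-2B with 19.5 in 2B-OlapR, a log2 ratio of 5.38 (4.63 to 6.14). Both genes were low in both LNCaP lines and high in both C4-2B lines. SLC3A2, the partner of SLC7A5, was at 131 CPM in LNCaP and 193 in C4-2B. ABAT was at 45.3 CPM (LNCaP), 47.7 (LN-OlapR), 16.4 (C4-2B) and 10.3 (2B-OlapR). Both LNCaP lines were above both C4-2B lines in ABAT, as they were in ME2.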
